A study of Caenorhabditis elegans with 6 samples.

Results

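A set of 9 intestinal defence genes of the nematode Caenorhabditis elegans was followed in whole animals kept with or without caffeine: irg-4, irg-5, dod-17, dod-19, dod-21, dod-22, dod-24, F55G11.6 and B0024.4. They are 9 of the 46904 gene IDs in the deposited tables, and all 9 had enough counts to be among the 14200 genes tested. The genes were chosen by their measured values: F55G11.6 and B0024.4 had been among the largest falls in the same comparison of caffeine with control. Their fold changes are therefore given as a description, and no test of them is used as evidence. Where a threshold is named for any of them, it shows only how the value depends on the libraries and the fit.

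The caffeine group was strain N2, the wild-type laboratory strain, as hermaphrodites kept from the last larval stage for 72 h at 25 °C on agar with 10 mM caffeine and OP50 bacteria, with 3 libraries. The control group had the same strain, sex, food, time and temperature on agar without caffeine, also with 3 libraries. Both groups were harvested on day 3 of adulthood, and each library pooled about 300 worms. RNA came from the whole body, so a change in the intestine's share of the RNA and a change of level within the intestine cannot be told apart.

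Worms have no mobile immune cells, and the intestine makes many secreted or surface proteins in response to swallowed microbes and toxins. Several of these proteins carry a CUB-like domain, a fold found in extracellular proteins, among them the products of irg-4, irg-5, dod-17, dod-21, dod-22 and dod-24. The irg genes (infection response genes) were named for their induction by pathogenic bacteria, and irg-4 and irg-5 are widely used reporters of the p38 MAP kinase PMK-1 pathway. The dod genes (downstream of daf-16) were named for their dependence on insulin signalling through the FOXO transcription factor DAF-16. F55G11.6 and B0024.4 have no gene name beyond their sequence names.

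The libraries held between 40417780 and 40746556 expected counts, so that depth was nearly the same in all. Control library 3 stood apart. Of the 9821 tested genes that averaged 100 counts or more, 72 (0.733%) lay more than 2-fold above or below both other controls in control library 3, against 11 in control library 1 and 8 in control library 2. Among these 72 were 4 of the 9 defence genes, so values without control library 3 are given where they matter.

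The 9 genes did not move as a block. With caffeine, irg-5 and irg-4 were higher by 55.04-fold and 30.8-fold and dod-22 by 3.23-fold, whereas F55G11.6 was lower by 22.4-fold, B0024.4 by 6.85-fold, dod-19 by 2.91-fold, dod-21 by 2.78-fold and dod-17 by 2.24-fold. dod-24 differed by 1.12-fold. In the edgeR fit over all genes, 3 of the 9 lay on the higher and 5 on the lower side of an adjusted p of 0.05, where 24.3% of all tested genes passed (13.8% higher and 10.5% lower). The groups did not overlap for 7 of the 9 genes, with 3 wholly above (23.3% of all tested genes) and 4 wholly below (20.9%), against 44.2% in either direction. Since these values chose the genes, nothing is read from the shares. The median log2 fold change was -1.16 over the 9 genes and 0.00 over all tested genes, and that of the 9 genes was -0.73 without control library 3.

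**Figure D1:**
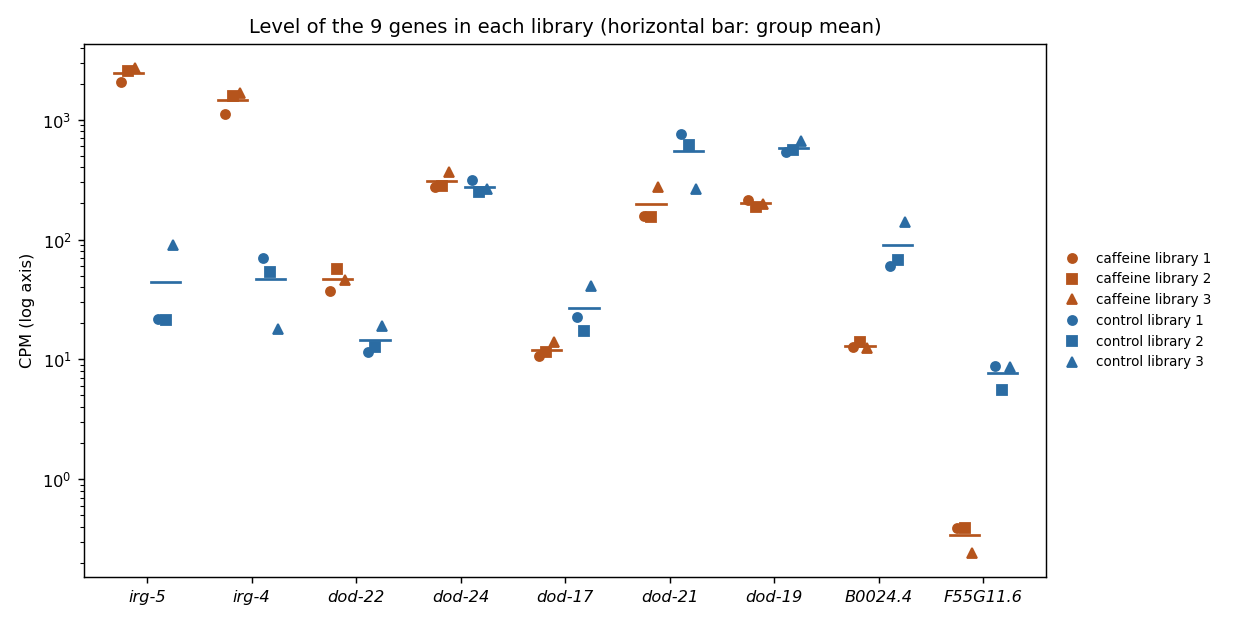
Library-scaled counts (CPM, log axis) of the 9 genes in each library, caffeine libraries in orange and control libraries in blue, with a horizontal bar at each group mean. irg-5, irg-4 and dod-22 lie wholly above their controls, dod-17, dod-19, B0024.4 and F55G11.6 lie wholly below, and dod-24 and dod-21 overlap.

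The 2 infection response genes had the largest differences. irg-5 (WBGene00009429, build WBcel235, as for all positions here, chromosome V, 13737010 to 13738474, minus strand) had 79744, 110834 and 111008 counts in caffeine libraries 1 to 3, against 882, 839 and 3593 counts in control libraries 1 to 3. All caffeine libraries were far above all controls, and control library 3 was the high control. In CPM, counts scaled to a common library size with TMM factors, irg-5 averaged 2436 ± 336 with caffeine and 44.2 ± 39.4 in control (mean ± SD, n = 3 per group). The log2 fold change was 5.78 (SE 0.61), and it was 6.82 without control library 3. By count, irg-5 was the 22nd, 8th and 11th most abundant gene of the table in the caffeine libraries, against places 6038, 6094 and 2990 in the controls.

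irg-4 (WBGene00008584, chromosome IV, 12435833 to 12438236, plus strand) had 43185, 67888 and 69300 counts in caffeine libraries, against 2854, 2111 and 711 counts in control libraries. Here control library 3 was the low control, the opposite of its place for irg-5. irg-4 averaged 1454 ± 301 CPM with caffeine and 47.2 ± 26.96 CPM in control (mean ± SD, n = 3 per group), and its log2 fold change was 4.94 (SE 0.47). Without control library 3 it was 4.55. The count of irg-5 divided by that of irg-4 was 1.85, 1.63 and 1.602 in caffeine libraries, against 0.309, 0.397 and 5.05 in control libraries. The ratio was thus steady with caffeine and differed between control library 3 and the other two. Among the 9821 genes averaging 100 counts or more, irg-5 had the 17th and irg-4 the 23rd largest rise.

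Among the 5 dod genes of the set, dod-22 (WBGene00010125, chromosome IV, 12965374 to 12967392, plus strand) was the one whose libraries lay wholly above control. It had 1442, 2457 and 1887 counts in caffeine libraries, against 463, 502 and 766 counts in control libraries. Every caffeine library exceeded every control. On the log2 scale the difference was 1.69 (SE 0.21), and between 1.53 and 1.95 with any 1 library left out.

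dod-24 (WBGene00007875, chromosome IV, 12940106 to 12941354, minus strand) had 10663, 12191 and 15154 counts in caffeine libraries, against 12600, 9906 and 10621 counts in control libraries. The groups overlapped, with a log2 fold change of 0.16 (SE 0.13). Its nearest relative in the set, dod-21 (WBGene00007873, chromosome IV, 12936738 to 12937988, plus strand), had 6144, 6711 and 11378 counts in caffeine libraries, against 30724, 24300 and 10535 counts in control libraries. Caffeine library 3 lay above control library 3, so these groups overlapped too. The log2 fold change of dod-21 was -1.47 (SE 0.38), and it was -1.81 without control library 3 and -1.16 without control library 1. It passed the threshold in 8 of 13 alternatives and missed it without control library 1, control library 2, caffeine library 1 or caffeine library 2, and with the replicate number as a block.

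The counts of dod-21 are uncertain because none of its 6 values was whole, a sign that reads were divided among similar genes. cld-1 also had no whole value. The sum of dod-21 and cld-1 was 8012, 8447 and 14708 counts in caffeine libraries, against 46629, 37963 and 17402 counts in control libraries. This sum was whole in every library and did not overlap between the groups. The other 8 genes had whole values in all libraries, and none of the 9 overlapped another annotated gene on either strand.

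dod-19 (WBGene00022644, chromosome V, 411782 to 414759, minus strand) was the steadiest of the genes that were lower. It had 8340, 8107 and 8194 counts in caffeine libraries, against 21675, 22036 and 26382 counts in control libraries. The lowest control was far above the highest caffeine library. The difference in log2 was -1.54 (SE 0.09), and between -1.60 and -1.45 with any 1 library left out.

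dod-17 (WBGene00010745, chromosome IV, 12976303 to 12978343, plus strand) had 417, 494 and 573 counts in caffeine libraries, against 905, 689 and 1640 counts in control libraries. The groups did not overlap, and control library 3 was the high control. The log2 fold change was -1.16 (SE 0.29), but -0.73 without control library 3. Without caffeine library 2, dod-17 no longer passed the threshold.

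F55G11.6 (WBGene00010126, chromosome IV, 12958030 to 12959594, plus strand) had 15, 17 and 10 counts in caffeine libraries, against 356, 222 and 346 counts in control libraries. All controls were far above the caffeine libraries, though the gene was low in both groups, at 0.341 ± 0.0847 CPM with caffeine and 7.68 ± 1.82 CPM in control (mean ± SD, n = 3 per group). Its log2 fold change was -4.48 (SE 0.27), and it ranked first by size of fall among the same 9821 genes. That rank restates how the gene was chosen. It also depends on the floor of 100 counts on average, which F55G11.6 passed through its controls. Over all 14200 tested genes the lowest log2 fold change was -5.42.

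B0024.4 (WBGene00007097, chromosome V, 10297399 to 10298985, plus strand) ranked 5th by fall, which likewise restates how it was chosen. It had 493, 601 and 514 counts in caffeine libraries, against 2439, 2702 and 5571 counts in control libraries. The caffeine libraries were close together, while control library 3 had over 2 times the counts of the other controls. Its log2 fold change was -2.78 (SE 0.30), and -2.31 without control library 3.

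**Figure D2:**
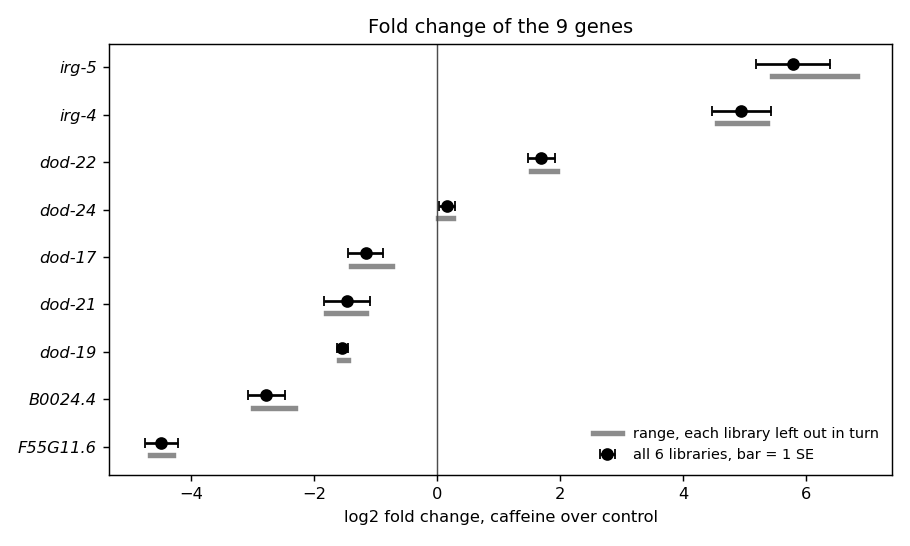
Log2 fold change of each gene, caffeine over control (points, bars of 1 SE), with the range obtained when each library was left out in turn (grey). irg-5 has the widest grey range, 5.44 to 6.82, and dod-24 stays near 0, between 0.01 and 0.26.

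Per length of annotated exon, the order of the 9 genes differed between the groups. With caffeine the order by CPM per kilobase was irg-5 (2181 ± 301), irg-4 (1319 ± 273), dod-24 (266 ± 44.9), dod-21 (172 ± 60.6), dod-19 (143 ± 10.0), dod-22 (37.1 ± 7.79), dod-17 (10.5 ± 1.46), B0024.4 (9.62 ± 0.5502) and F55G11.6 (0.333 ± 0.0828), each a mean ± SD over 3 libraries. With caffeine the ranges of dod-24 and dod-21, of dod-21 and dod-19, and of dod-17 and B0024.4 overlapped. In control the order by CPM per kilobase was dod-21 (478 ± 224), dod-19 (418 ± 47.3), dod-24 (238 ± 28.1), B0024.4 (65.9 ± 32.1), irg-4 (42.8 ± 24.5), irg-5 (39.6 ± 35.3), dod-17 (23.6 ± 10.9), dod-22 (11.49 ± 3.29) and F55G11.6 (7.51 ± 1.77). In control the ranges of dod-21 and dod-19 and those of neighbours from B0024.4 to dod-22 overlapped, so their order is not fixed by these libraries. dod-24 held the third place and F55G11.6 the last in both groups.

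The make-up of the summed level changed accordingly. irg-4 and irg-5 together held 83.1%, 86.5% and 83.8% of the summed CPM per kilobase of the 9 genes in caffeine libraries, against 5.63%, 5.17% and 8.10% in control libraries. dod-19, dod-21 and dod-24 together held 15.5%, 11.96% and 14.95% in caffeine libraries, against 88.9%, 88.6% and 78.3% in control libraries. The 9 genes took between 0.372% and 0.539% of all counts with caffeine and between 0.148% and 0.1797% in control. The exact binomial 95% intervals of the nearest libraries were 0.370% to 0.374% in caffeine library 1 and 0.178% to 0.181% in control library 1, and they cover counting error only. The larger share with caffeine was that of irg-4 and irg-5, which took 0.304%, 0.440% and 0.446% of counts in caffeine libraries, against 0.00921%, 0.00726% and 0.0106% in control libraries.

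**Figure D3:**
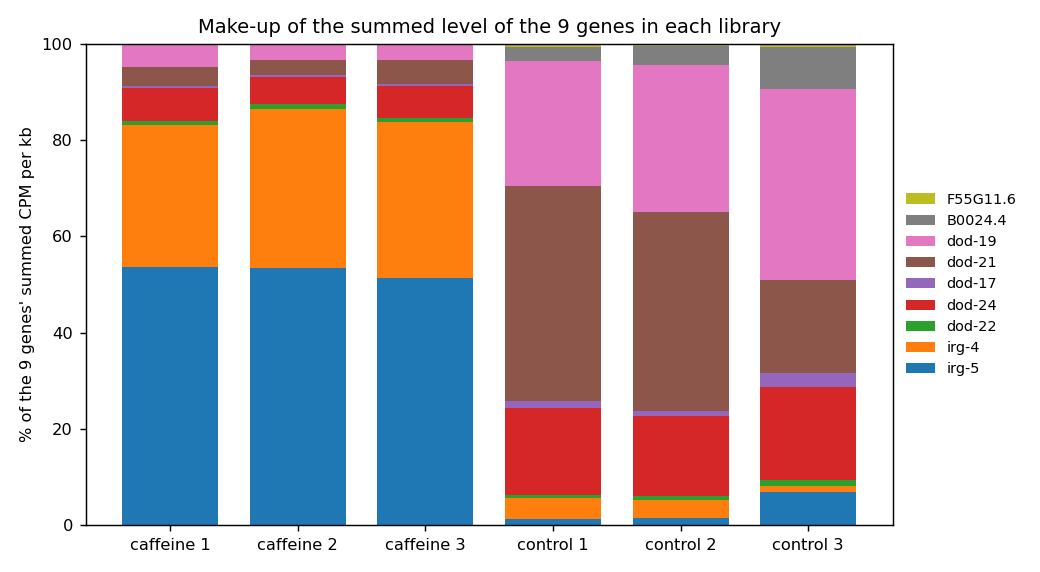
Share of each gene in the summed CPM per kilobase of the 9 genes, one stacked bar per library. irg-5 and irg-4 fill over 83% of each caffeine bar, whereas dod-21, dod-19 and dod-24 fill at least 78.3% of each control bar.

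The spread among control libraries was itself large for most of these genes. The highest control was 4.25 times the lowest for irg-5, 3.98 times for irg-4, 2.89 times for dod-21, 2.36 times for dod-17 and 2.30 times for B0024.4, compared on CPM. Among caffeine libraries the largest such ratio was 1.78, for dod-21. The SD of log2 CPM within the control group lay above the 95th percentile of the 9821 genes for 7 of the 9 genes, and within the caffeine group for 1 of them. The median SD over those 9821 genes was 0.117 in the caffeine group and 0.0678 in the control group. Control library 3 was more than 2-fold above both other controls for irg-5 and B0024.4 and more than 2-fold below both for irg-4 and dod-21.

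Most of the genes lie in groups of similar genes, and neighbours often differed in direction. On chromosome IV, dod-21, dod-24, F55G11.6, dod-22 and dod-17 lie within a stretch in which dod-21 and dod-17 are 38314 bases apart. Between positions 12925866 and 12995986 of that chromosome, 22 protein-coding genes are annotated and 15 were tested, of which 3 were called higher and 9 lower, the defence genes included. Over all tested genes, the shares called were 13.8% higher and 10.5% lower. The lower calls include dod-21, F55G11.6 and dod-17, and the higher calls dod-22, all chosen genes. The tally also depends on its ends, since irg-6, srz-15, C32H11.3 and C32H11.4, all called higher, lie just before them. The fall of dct-19 and the rise of F55G11.1 rested on 75 and 74 counts in all, and passed in 7 and 8 of 12 alternatives. F55G11.4, which lies between dod-22 and dod-17, had the most counts of the genes in that stretch. It had 8572, 11384 and 16245 counts in caffeine libraries, against 67467, 61965 and 32588 counts in control libraries, so that all controls were above all caffeine libraries. Its log2 fold change was -2.20 (SE 0.30) with an adjusted p of 0.00160 by the edgeR quasi-likelihood test. F55G11.2, between dod-22 and F55G11.4, rose by contrast, at 1.52 on the log2 scale (edgeR adjusted p 0.00111).

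The CUB-like gene cld-1, just before dod-21, fell at a log2 fold change of -2.43 (edgeR adjusted p 0.00202), on counts shared in part with dod-21. Beyond dod-17, K10D11.5 fell at -1.88 with an edgeR adjusted p of 1.75e-05, and K10D11.3 and K10D11.6 fell at -1.08 and -0.77. Outside the stretch counted above, on the side of dod-21, C32H11.4 rose at 1.34 (edgeR adjusted p 0.00120). Further out, irg-6, another infection response gene, rose at 2.42 (edgeR adjusted p 0.000406). These calls held under each of the 13 alternatives.

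**Figure D4:**
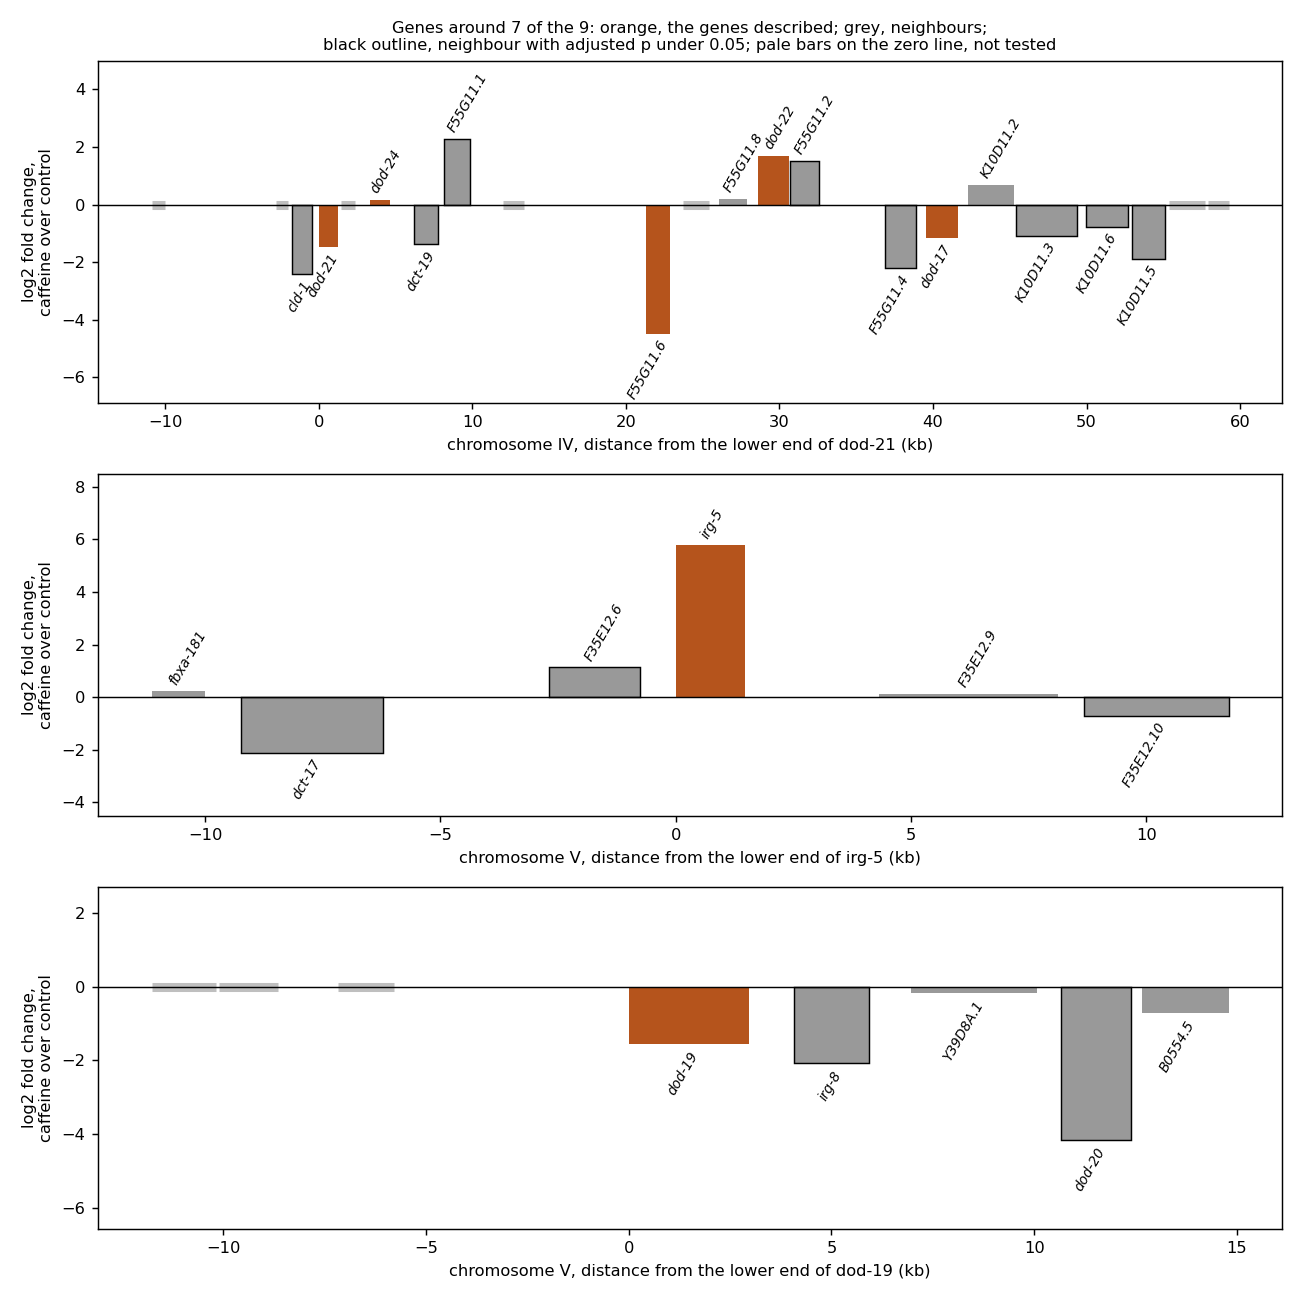
Log2 fold change of protein-coding genes, caffeine over control, at their place on the chromosome around dod-21 to dod-17 (top), irg-5 (middle) and dod-19 (bottom), as distance in kilobases. Orange bars are the defence genes, grey bars their neighbours, outlined where the adjusted p is under 0.05, and pale marks on the zero line are genes not tested. F55G11.6 at -4.48 and dod-22 at 1.69 stand 5779 bases apart, and irg-5 at 5.78 stands between F35E12.6 at 1.13 and F35E12.9 at 0.13.

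On chromosome V, irg-5 lies 762 bases from F35E12.6 and 6225 bases from dct-17. F35E12.6 rose at a log2 fold change of 1.13 (SE 0.11, edgeR adjusted p 0.000341). dct-17 fell, with 869, 1022 and 833 counts in caffeine libraries, against 3074, 2613 and 5723 counts in control libraries, a log2 fold change of -2.11 (SE 0.27, edgeR adjusted p 0.00118). F35E12.10, on the other side of irg-5, fell at -0.70 (edgeR adjusted p 0.000574). As for irg-5 and B0024.4, control library 3 was the high control for dct-17.

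dod-19 lies 1110 bases from irg-8, and both were lower. irg-8 had 4402, 4340 and 4130 counts in caffeine libraries, against 13879, 13951 and 25215 counts in control libraries. Its log2 fold change was -2.08 (SE 0.22) with an adjusted p of 0.000522 in the edgeR test. dod-20, further along, had 4, 6 and 1 counts in caffeine libraries, against 50, 60 and 87 counts in control libraries, a fitted log2 fold change of -4.16 with an edgeR adjusted p of 0.000775. Around irg-4 on chromosome IV, the C-type lectin gene clec-184 rose at 1.90 on a total of 146 counts (edgeR adjusted p 0.00555). Other neighbours of irg-4, named after their values were seen, also rose: clec-185 at 4.03 on 94 counts in all (edgeR adjusted p 0.000418) and C25G4.2 at 0.48 (0.000992). The neighbours col-130 (0.99, edgeR adjusted p 0.288) and C25G4.3 (-0.21, 0.0730) were not called. Of 6 tested genes there, irg-4 included, 4 were called higher and 0 lower, against 13.8% and 10.5% of all tested genes. The genes next to B0024.4 that were tested were not called.

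The annotated gene structures group the 9 genes, and genes of like structure moved in the same direction with caffeine in some groups but not in others. Coding exons are the stretches of a gene that are translated, and related genes often keep their lengths. F55G11.6, dod-17 and dod-22 each have 8 coding exons. The lengths for F55G11.6 and dod-17 were equal in 7 of 8 exons, and F55G11.4 and F55G11.2 had all 8 lengths of dod-17. Among 1320 protein-coding genes with 8 coding exons, 12 had the same remainder as F55G11.6 after division of every exon length by 3, which is the measure of how exons keep the reading frame. Of these 12, 11 lie on chromosome IV between 12918556 and 12981991 and 1 lies on chromosome V.

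Within this group of 12 the directions were mixed. Of the 3 defence genes in it, F55G11.6 and dod-17 were lower and dod-22 was higher. Of the other 9, 8 were tested, and 3 of these rose (C32H11.3, C32H11.4 and F55G11.2) while 2 fell (F55G11.4 and dct-19), in the edgeR test over all genes. Of all tested genes, 13.8% rose and 10.5% fell. The rise of C32H11.3 (log2 fold change 0.73, edgeR adjusted p 0.0496) and the fall of dct-19 (-1.38, adjusted p 0.0197, on 75 counts in all) were not stable: they passed in 6 of 13 and 7 of 12 alternatives. F55G11.8, named for its structure after its values were seen, had the 8 exon lengths of dod-17 and a log2 fold change of 0.21 with an edgeR adjusted p of 0.423.

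dod-21 and dod-24 share all 3 coding exon lengths, 284, 669 and 130 bases, which no other protein-coding gene has, and cld-1 shares the last 2. In count, dod-21 was 0.576, 0.5505 and 0.751 times dod-24 in caffeine libraries, against 2.44, 2.45 and 0.992 times in control libraries. dod-19 and irg-8 share a run of 4 exon lengths, 68.1% of the coding length of dod-19, and both were lower. irg-5 shares a run of 4 lengths with F35E12.6 and dct-17, of which the first rose and the second fell. irg-4 shares its longest run, 4 lengths, with C17H12.6 (named for its structure), whose log2 fold change was 0.01. B0024.4 shared no run of 3 or more lengths with any gene.

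**Figure D5:**
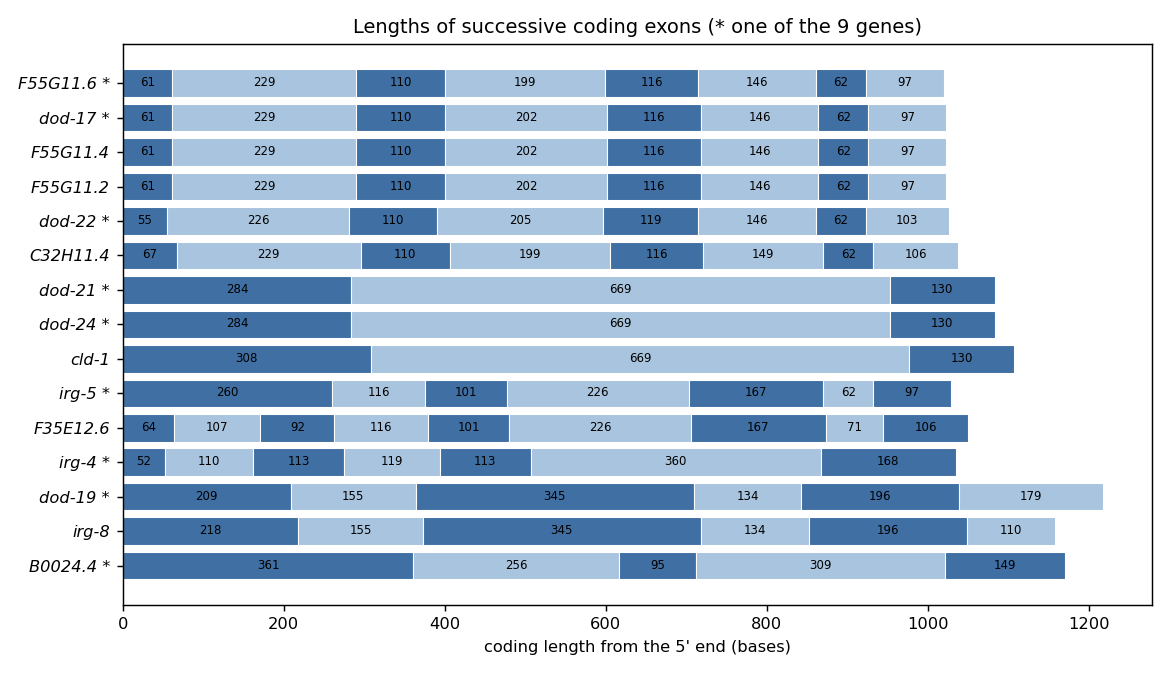
Lengths in bases of successive coding exons, from the 5' end, of the 9 genes (asterisk) and 6 relatives, taken from the transcript with the longest coding sequence. F55G11.6, dod-17, F55G11.4, F55G11.2, dod-22 and C32H11.4 form one pattern of 8 exons, and dod-21 and dod-24 have identical lengths.

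Other genes of the same naming classes were mixed as well. For these and the lists below, the shares called over all tested genes were 13.8% higher and 10.5% lower. Of the 5 other dod genes tested, dod-6 rose (log2 fold change 1.42, edgeR adjusted p 0.00189) and dod-20 and dod-23 fell. The fall of dod-23 was small, at -0.43, and its adjusted p of 0.0243 in the edgeR test became 0.0796 without caffeine library 2. Of the 6 other irg genes, irg-6 rose and irg-8 fell, and 4 were not called. These counts depended on the fit, with 2 higher and 2 lower without caffeine library 1 and 2 higher and 3 lower by DESeq2. Of 41 tested genes on the stretches of sequence that hold the 9 genes, 9 rose and 11 fell, with a median log2 fold change of 0.13. The sign of that median was not stable: it was -0.078 without a filter on low counts, -0.052 at a mean count of at least 50, -0.036 without control library 2, -0.029 without control library 3 and -0.038 without caffeine library 2. Those stretches also hold unrelated genes.

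Of 14 other genes known to depend on PMK-1 or to respond to infection, 8 rose and 3 fell, with a median log2 fold change of 0.86 against 0.00 over all tested genes. The C-type lectin gene clec-67 rose to 41.2 ± 6.00 CPM with caffeine, against 12.4 ± 0.781 CPM in control (mean ± SD, n = 3 per group), and its log2 fold change was 1.74 with an edgeR adjusted p of 4.73e-05. dct-17 had the largest fall of this list. The fold changes of irg-5 and irg-4 were above that of every gene on the list, the highest of which was 2.02 for the lysozyme gene ilys-3, named after its value was seen.

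The known regulators moved by smaller amounts than irg-5 and irg-4, the largest log2 fold change among them being 1.62 for elt-4. That value rested on few counts, 15, 33 and 23 in caffeine libraries, against 12, 6 and 4 in control libraries. Among the other called regulators the largest log2 fold change in size was -0.99, for pqm-1. Of 15 genes of the p38 pathway and its inputs, 1 rose and 5 fell, but 3 fell without caffeine library 3 or any 1 control library. pmk-1, the p38 kinase itself, had 22.4 ± 1.93 CPM with caffeine and 24.1 ± 1.17 CPM in control (mean ± SD, n = 3 per group), and its log2 fold change was -0.10 with an edgeR adjusted p of 0.414. atf-7, the transcription factor downstream of PMK-1, had -0.11 with an edgeR adjusted p of 0.212. vhp-1, a phosphatase that acts on MAP kinases, fell at -0.70 (edgeR adjusted p 0.00417), pmk-3, another p38 gene, at -0.74 (0.00569), and egl-30, a G protein alpha subunit, at -0.39 (0.00415). None of the 6 values of egl-30 was whole, as for dod-21. tir-1, the adaptor at the top of the pathway, rose at 0.38 and passed in 7 of 13 alternatives, dkf-2 fell at -0.35 and passed in 8, and skn-1 fell at -0.31 and passed in 9.

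Of 10 genes of insulin signalling, 4 fell and none of those tested rose, but 2 fell with any 1 library other than caffeine library 1 left out. pqm-1, a zinc finger transcription factor that binds the DAF-16-associated element, fell to 29.5 ± 2.49 CPM with caffeine, against 58.7 ± 6.41 CPM in control (mean ± SD, n = 3 per group), and its log2 fold change was -0.99 with an edgeR adjusted p of 0.000337. pdk-1, a kinase of the insulin pathway, fell at -0.78 (edgeR adjusted p 0.00333). daf-16 had 0.04 with an edgeR adjusted p of 0.657. daf-2, the insulin receptor gene, fell at -0.33 and hsf-1 at -0.18, and they passed in 8 and 5 of 13 alternatives.

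Of 13 intestinal and immune transcription factors, 1 rose and 7 fell, but 2 fell without control library 2, 4 without caffeine library 2 and 3 without caffeine library 3. elt-2, the main GATA factor of the intestine, fell to 7.47 ± 0.583 CPM with caffeine, against 12.1 ± 2.79 CPM in control (mean ± SD, n = 3 per group), and its log2 fold change was -0.69 with an edgeR adjusted p of 0.0206. Leaving out caffeine library 2 moved that edgeR p to 0.0741. nhr-86, a nuclear hormone receptor that can turn on irg-4 and irg-5, fell at -0.30 and passed in 9 of 13 alternatives. cebp-1 fell at -0.89 and nhr-8 at -0.86, with edgeR adjusted p of 0.00563 and 0.00659. mdt-15, bar-1 and atfs-1 fell at -0.36, -0.52 and -0.24 and passed in 11, 10 and 7 of 13 alternatives, and elt-4 rose at 1.62 and passed in 7 of 12. RNA levels do not report the activity of these proteins.

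Markers of the intestine did not move together. Of 12 such genes, 2 rose and 5 fell (1 rose with any 1 library but control 3 left out, and 3 fell without control library 2 or caffeine library 2), with a median log2 fold change of -0.10, and their summed level was 2368 to 2592 CPM with caffeine and 2308 to 2669 CPM in control. None of them was at 0. Markers of other tissues had summed levels of 91.5 to 103.6 CPM with caffeine and 59.8 to 64.9 CPM in control for the pharynx (4 of 5 tested rose), 129.96 to 131.2 CPM with caffeine and 49.4 to 77.7 CPM in control for the hypodermis (2 of 6 rose), and 470 to 614 CPM with caffeine and 377 to 418 CPM in control for body wall muscle (2 of 6 rose, and 1 without control library 2 or 3). For neurons the sums were 210 to 216 CPM with caffeine and 209 to 218 CPM in control, with 1 of 6 higher and 1 lower (0 higher without control library 2, caffeine library 2 or caffeine library 3, and 2 without caffeine library 1). The germline sums were 6070 to 8589 CPM with caffeine and 7944 to 8635 CPM in control, with 1 of 6 lower (6 without caffeine library 1, and 0 with any other library left out), and the sperm sums 2.40 to 4.28 CPM with caffeine and 2.55 to 13.2 CPM in control, with 1 of 4 tested lower (between 0 and 2 with 1 library left out). The part of these shifts in the values of the defence genes was not tested.

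The genes most alike to F55G11.6 in pattern over the 6 libraries, by the root mean square difference of centred log2 CPM, were the tetraspanin gene tsp-1 (0.326), Y47H10A.5 (0.378) and the lipase-related gene lips-11 (0.485). Those most alike to B0024.4 were T19C9.8 (0.276), Y47H10A.5 (0.281) and valv-1 (0.310). Y47H10A.5 had 60.8, 68.2 and 44.2 CPM in caffeine libraries, against 321, 424 and 533 CPM in control libraries, with control library 3 highest, as for B0024.4. This likeness was taken over 6 libraries in 2 groups.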

How the data were processed

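Per the file headers, the values that the authors deposited for the 6 libraries are expected counts by gene: estimated reads, not scaled by depth or length, with reads of ambiguous origin shared out between genes. The submitters' processing notes name STAR 2.7.0e, RSEM 1.3.1 and the build WBcel235; settings, and whether counting used strand, are not given in the sources used here. Libraries were stranded, polyadenylated and read from both ends, per the labels' protocols, which speak of biological replicates without saying how these were separated. The p-values set each group difference against the spread between these libraries. What variation that spread covers is not known.

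Expected counts were rounded, filtered with filterByExpr (minimum count 10, minimum total 15), scaled with TMM factors (0.960 to 1.07) and compared with the quasi-likelihood test of edgeR 4.0.16 in R 4.3.3, caffeine over control, with Benjamini-Hochberg adjustment over 14200 genes and a threshold of 0.05. The SE is the log2 fold change divided by the square root of F. Per-kilobase levels use the union of annotated exons. Coordinates and coding exons come from Ensembl release 115 of WBcel235, and symbols from a table that matched 44017 of 46904 IDs. Log2 CPM for spread and likeness used a pseudocount of 0.5.

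The test was tried on simulated counts first. It recovered 69.07% of simulated 2-fold and 89.8% of simulated 4-fold changes, and called 0.087% of unchanged genes. A gene that was not called may therefore still differ. In the simulation 200 of 14200 genes were changed, with counts drawn from the count model that edgeR assumes and the dispersions it fitted. In the real data 24.3% of tested genes were called, so the simulated rates need not hold there. The members and gene lists were chosen with earlier results of these data known. From each list the text names, among genes averaging 100 counts or more, the called genes with the largest rise and fall, then the gene with the smallest adjusted p, and for regulators all called genes. Called genes of the stretches that hold the 9 genes may be named too. pmk-1, atf-7, daf-16, pqm-1, elt-2 and nhr-86 are named whatever their values. Alternatives were other scalings and filters, DESeq2 1.42.0, limma-voom (limma 3.58.1), a replicate block and each library left out. Promoter and protein sequences were not analysed here.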

Additional observations from a re-analysis of the deposited data

How the results depend on the processing

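No defence gene changed sign under any of the 13 alternatives, and under the other scalings the median of all genes moved by at most 0.04 on the log2 scale. Between 3 and 5 genes were on the lower side with 1 library left out. dod-21 crossed the threshold with the replicate block and without control library 1, control library 2, caffeine library 1 or caffeine library 2, and dod-17 without caffeine library 2. Over all genes, leaving out 1 library gave between 1209 and 2264 higher and between 698 and 2512 lower genes, where all 6 gave 1962 and 1488, and the lower count moved by over 1.5 times without any one of the 6. Without control library 2, 1209 were higher and 698 lower, and without caffeine library 1, 2264 and 2512. DESeq2 gave 2022 and 1882 and limma-voom 1944 and 1499. With the replicate block, 1496 genes were higher and 1074 lower, and 3 and 4 of the defence genes, with dod-21 lost. Deviations of same-numbered libraries from their group means had r = -0.18, -0.16 and 0.25 across genes. Library pairs of unlike number had r between -0.34 and 0.43. With 3 libraries per group, these values cannot show whether the numbers pair the libraries. The median of genes on the same stretches of sequence (CUB-like clusters), 0.13, was -0.078 without a filter, -0.052 at a mean count of at least 50 and between -0.038 (without caffeine library 2) and 0.080 (without control library 1) with 1 library left out. That of the nearest genomic neighbours, 0.15, was -0.24 without a filter, -0.29 at a mean count of at least 50 and between -0.065 (without control library 2) and 0.18 (without caffeine library 1) with 1 library left out. That of sperm markers, -1.35, was 0.66 at a mean count of at least 50 and between -3.35 (without caffeine library 1) and -0.71 (without control library 2) with 1 library left out, with -2.73 without control library 3 and -2.09 without caffeine library 2. That of the 9 genes, -1.16, was -0.73 without control library 3. The cause of these shifts was not tested. Levels per kilobase of coding length left the order of the 9 genes as it was in both groups. F55G11.6 with caffeine rests on 10 to 17 counts per library, so its fold is the least precisely counted.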
